A study of Mus musculus with 6 samples.

Results

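Nodal and 9 of its closest signalling relatives were followed in RNA-seq counts from the adult mouse brain, giving 10 genes of the 53801 listed. The genes were chosen by name. Nodal itself was picked because it was higher in Bahd1-KO than in Bahd1-WT brains in these same samples, so its difference is given below as a description without a test. The other members were picked for their place in the pathway: the ligand Gdf1, the inhibitors Lefty1 and Lefty2, the co-receptor Tdgf1, the receptors Acvr1b, Acvr2a and Acvr2b, and the mediators Smad2 and Foxh1.

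One brain hemisphere was sequenced from each of 3 Bahd1-WT mice (Bahd1+/+) and 3 Bahd1-KO mice (Bahd1-/-), all adult C57BL/6 animals aged about 70 weeks that received no other treatment. The mice of the study were males. Both copies of Bahd1, which encodes a chromatin protein that takes part in gene silencing, are lost from every cell of the Bahd1-KO mice, and because many such mice die around birth the adults sequenced here are survivors. The tissue mixes all cell types of the brain, so that in every comparison below fewer cells of a type and less RNA per cell cannot be told apart.

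Nodal is a secreted ligand of the TGF-beta family, best known for inducing mesoderm and for setting the left-right axis of the embryo. It binds type I and type II activin receptors with the help of an EGF-CFC co-receptor, and the receptors phosphorylate SMAD2 and SMAD3, which enter the nucleus with SMAD4 and act on target genes together with partners such as FOXH1. Lefty proteins are induced by this signal and block it outside the cell, while in the adult brain most of the receptors and Smads serve activins and other ligands of the family.

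Bahd1 had 1383, 844 and 1099 counts in the Bahd1-WT libraries and 0, 14 and 1 in the Bahd1-KO libraries, which fitted the genotype on every label. Depth ran from 42297150 to 93557948 counts per library, and 3 counts, taken as the lowest level that a library could show, were worth 0.0315 to 0.0690 CPM (counts scaled to the TMM-normalized library size). The libraries differed in base composition. The GC content of the genes, weighted by their reads, was 45.4 to 46.1% in Bahd1-WT and 46.7, 49.5 and 47.6% in Bahd1-KO replicates 1, 2 and 3. The fold changes below are therefore given both as fitted and with a GC and length offset, in which a smooth trend of expression on GC content and transcript length is removed from each library. Because this GC content did not overlap between the genotypes, the offset can also remove a genotype difference that follows GC content. Summed marker levels overlapped between the genotypes for neurons, oligodendrocytes, microglia, endothelial and mural cells, olfactory mucosa and pituitary. For endothelial and mural cells the overlap was narrow (145.4 to 160.2 against 157.3 to 204.4 CPM), with a median log2 fold change of 0.57 (0.19 with the offset). At an unadjusted p under 0.05 in edgeR's test 3 of these 6 markers were higher in Bahd1-KO and 0 lower (19.9% and 12% of all genes). For red blood cells the sums also overlapped by little (10.8 to 15.9 against 15.1 to 92.6 CPM). By that rule 4 of the 5 red blood cell markers were higher in Bahd1-KO and 0 lower (19.9% and 12% of all genes). With the offset 4 were higher and 1 lower (9.89% and 11.4% of all genes). The median log2 fold change of the 5 was 1.99 (1.25 with the offset). The sums were lower in all Bahd1-KO libraries for astrocytes (5470 to 5960 CPM in Bahd1-WT, 3461 to 5153 in Bahd1-KO), meninges and lung (2.32 to 108.6 against 0.483 to 1.41 CPM), and higher for choroid plexus (282.0 to 378.0 against 461.0 to 1086 CPM). All 6 lung markers had fitted log2 fold changes below 0, but the other 3 sums were each led by their most abundant genes. For astrocytes 4 markers were below 0 and 2, Gfap and Aldh1l1, above it, and for meninges 2 were below, Dcn and Lum, and 4 above. The choroid plexus sum was mostly Ttr, with 3 markers above 0, 3 below and a median log2 fold change of 0.02. None of the markers in these 11 lists was at 0 in every library, and the part of such cell types in the results below was not tested.

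Nodal (ENSMUSG00000037171, chromosome 10, 61417972 to 61425338, plus strand, GRCm38) was a very low transcript of the adult brain that stood higher in each Bahd1-KO brain than in any Bahd1-WT brain. Its counts were 17, 11 and 12 in Bahd1-WT replicates 1, 2 and 3 and 25, 78 and 35 in Bahd1-KO replicates 1, 2 and 3. On the CPM scale these were 0.186, 0.178 and 0.164 in Bahd1-WT and 0.575, 0.819 and 0.605 in Bahd1-KO. The Bahd1-WT brains lay close together, and the lowest Bahd1-KO brain, replicate 1, was clear of all of them. The means were 0.176 ± 0.011 CPM (SD, n = 3) and 0.666 ± 0.133 CPM (SD, n = 3), a ratio of 3.79, and the fitted log2 fold change was 1.92. Non-overlapping levels with Bahd1-KO higher were seen in 20.6% of the 23975 genes tested, that is, genes with at least 10 counts over the 6 libraries.

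The difference was smaller with the GC and length offset. The Nodal transcript has a GC content of 55.9%, and among expressed genes of similar GC content, the ninth of 10 groups ordered by GC, the median log2 fold change was 0.89. Nodal itself, at a mean of 0.421 CPM, lay below the cut for expressed genes (mean log2 CPM above 1), as did Lefty1, Lefty2 and Foxh1. For these genes the trend was thus taken from more abundant genes. With the GC and length trend removed, Nodal stood at 0.224, 0.272 and 0.217 CPM in Bahd1-WT and at 0.553, 0.420 and 0.501 CPM in Bahd1-KO. The genotypes still did not overlap, which on this scale held for 11.7% of all genes tested in the same direction, and the means were 0.238 ± 0.030 and 0.491 ± 0.067 CPM (SD, n = 3 each). The log2 fold change with the offset was 1.04. Bahd1-KO replicate 2, which had the highest GC content, had the highest Nodal level before the trend was removed and the lowest of the Bahd1-KO brains after it.

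**Figure D1:**
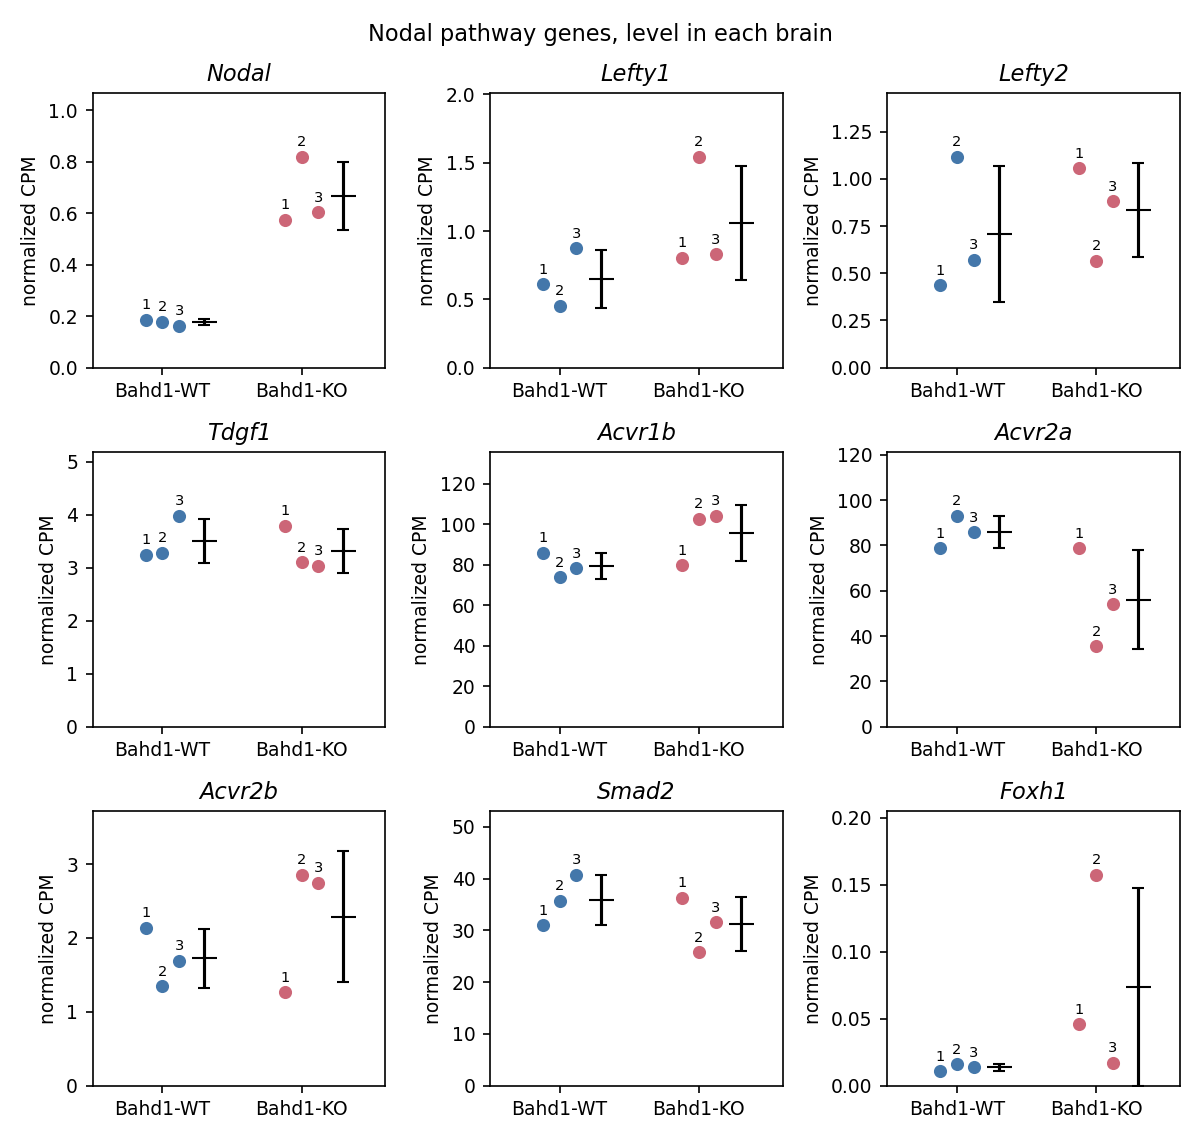
Normalized CPM (y axis, linear, a separate scale for each gene) in each Bahd1-WT (blue) and Bahd1-KO (red) brain, numbered by replicate, with the mean and SD of the 3 brains beside the points; Gdf1, at 0 counts in every library, is not drawn. Nodal is the gene whose points are clearly apart, at 0.164 to 0.186 CPM against 0.575 to 0.819 CPM.

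Nodal has no near-identical copy at the length of a read among the annotated transcripts. Its single annotated transcript of 2095 bases overlaps the exons of no other gene, and 0 of its windows of 50 bases recur in another transcript. Of the 10 annotated genes within 100000 bases on either side, the nearest protein-coding ones were Eif4ebp2, which encodes a repressor of translation initiation and lies 3153 bases downstream on the other strand, and Pald1, 34442 bases upstream. Eif4ebp2 had 47.4 ± 5.79 CPM in Bahd1-WT and 62.0 ± 8.77 CPM in Bahd1-KO (SD, n = 3 each), a log2 fold change of 0.39 (edgeR adjusted p = 0.166) that was 0.06 with the offset (edgeR adjusted p = 0.761). Pald1 had a log2 fold change of 0.80 (edgeR adjusted p = 0.0907), and with the offset of -0.29 (edgeR adjusted p = 0.284). Neither neighbour passed the test, and the value of Pald1 turned direction with the offset.

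The stretch of 250 bases before the annotated start of a gene was read from RefSeq for Nodal and for the receptors Acvr1b and Acvr2a, its abundant partners in the pathway, because among the members with a RefSeq entry Nodal had the fewest CpGs and these receptors the most. In the sequences below (GRCm38.p6, plus strand, 5′ to 3′) each CpG dinucleotide is in capitals.

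Nodal, chr10:61417722-61417971: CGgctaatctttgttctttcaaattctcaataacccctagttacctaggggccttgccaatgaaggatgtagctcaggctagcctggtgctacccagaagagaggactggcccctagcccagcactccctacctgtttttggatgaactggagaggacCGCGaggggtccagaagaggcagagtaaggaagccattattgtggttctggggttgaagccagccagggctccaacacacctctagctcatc

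Acvr1b, chr15:101173822-101174071: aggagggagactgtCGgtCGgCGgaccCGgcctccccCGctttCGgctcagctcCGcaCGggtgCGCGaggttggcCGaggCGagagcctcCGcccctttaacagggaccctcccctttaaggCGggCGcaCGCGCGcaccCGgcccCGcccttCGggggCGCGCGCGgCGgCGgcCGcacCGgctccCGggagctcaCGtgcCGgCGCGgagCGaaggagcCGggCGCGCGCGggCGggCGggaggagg

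Acvr2a, chr2:48813859-48814108: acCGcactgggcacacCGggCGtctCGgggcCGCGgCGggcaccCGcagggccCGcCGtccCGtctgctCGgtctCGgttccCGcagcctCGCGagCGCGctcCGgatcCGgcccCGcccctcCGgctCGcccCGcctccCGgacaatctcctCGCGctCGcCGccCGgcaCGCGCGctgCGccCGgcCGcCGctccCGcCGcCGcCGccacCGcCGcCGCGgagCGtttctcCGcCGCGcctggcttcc

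The Nodal stretch held 3 CpG dinucleotides at a GC content of 53.2%, fewer CpGs than the median of 6 over 32841 RefSeq promoters, and 29.0% of promoters held fewer. The Acvr1b stretch held 42 CpGs and that of Acvr2a 49, at GC contents of 78.8% and 82.0%, and 99.1% and 99.9% of promoters held fewer. Acvr2b had 24 CpGs, Tdgf1 7, and the 2 entries for Gdf1 11 and 7. The FOXH1 motifs AATCCACA and AATACACA, searched on both strands, were in none of these stretches and in 0.719% and 0.895% of all promoters. The SMAD motif CAGAC was absent from the Nodal and Acvr1b stretches, was found in those of Tdgf1, Acvr2a, Acvr2b and Gdf1, and was in 42.2% of all promoters. The palindrome GTCTAGAC, which overlaps no CAGAC match by itself, was in none of them and in 0.168% of all promoters.

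Gdf1, the other ligand, pairs with Nodal in the embryo. It had 0 counts in all 6 libraries and was not tested. All 1349 of its exon bases (100% of them) lie within exons of Cers1 on the same strand, a ceramide synthase gene with which Gdf1 shares a transcript, and a read over both genes cannot be given to one of them. Cers1 had 635, 209 and 409 counts in Bahd1-WT and 437, 3126 and 954 in Bahd1-KO, so the locus was transcribed. Most of the Cers1 counts in Bahd1-KO came from replicate 2, and its log2 fold change of 1.90 (edgeR adjusted p = 0.0634) was 0.25 with the offset (edgeR adjusted p = 0.390). The level of Gdf1 could therefore not be read from these counts. On the other strand, 63 of its exon bases (4.67%) lie opposite exons of Upf1. Upf1 had a log2 fold change of 1.35 (edgeR adjusted p = 0.0638), and of 0.16 with the offset (edgeR adjusted p = 0.402).

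None of the 8 relatives of Nodal that could be tested was called, which needed a change of at least 2-fold at an edgeR adjusted p under 0.05. This rule called 0.00834% of all genes tested, which are 2 genes. At an unadjusted p under 0.05 in edgeR's test, 1 relative was lower in Bahd1-KO (Acvr2a), where 12% of all genes were lower by that rule. The other one under it, Foxh1, was higher (19.9% of all genes) but passed the filter through the 15 counts of a single Bahd1-KO library and is not counted as a difference. DESeq2 with a normal prior on fold changes, which called 9.61% of all genes as higher and 0.909% as lower, also called 0 of the 7 to which it gave an adjusted p, and gave none to Foxh1. Without Foxh1, the median log2 fold change of the other 7 was 0.23 as fitted (the value of Lefty2) and -0.13 with the offset (that of Acvr2a). Over all genes tested the median was -0.06 on both scales. With the offset, 0 of the 8 were at an unadjusted p under 0.05 in edgeR's test, against 9.89% of all genes higher and 11.4% lower.

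Lefty1 and Lefty2, the secreted inhibitors of Nodal that are also its targets in the embryo, were detected in every brain at under 2 CPM. Lefty1 had 0.612, 0.453 and 0.873 CPM in Bahd1-WT and 0.804, 1.54 and 0.829 CPM in Bahd1-KO. The genotypes overlapped, and only Bahd1-KO replicate 2 stood above all Bahd1-WT brains. For Lefty1 this gave a log2 fold change of 0.73 ± 0.36 (SE, edgeR adjusted p = 0.197). Lefty1 has a GC content of 58.6%, and with the trend removed its direction turned, to a log2 fold change of -0.54 ± 0.27 (SE, edgeR adjusted p = 0.285), with levels of 0.789 to 1.32 CPM in Bahd1-WT and 0.605 to 0.779 CPM in Bahd1-KO that did not overlap. Levels apart with Bahd1-KO lower were found for 14.6% of all genes on this scale.

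Lefty2 lies beside Lefty1 on chromosome 1, at 180893108 to 180899103. It had 0.437, 1.12 and 0.573 CPM in Bahd1-WT and 1.06, 0.567 and 0.881 CPM in Bahd1-KO. Both the lowest and the highest brain were Bahd1-WT. Its log2 fold change was 0.23 ± 0.40 (SE, edgeR adjusted p = 0.711), and 0.0047 with the offset (edgeR adjusted p = 0.997). Of the 50-base windows of Lefty1, 281 recur in Lefty2, which is 17.9% of the Lefty1 windows and 11.6% of those of Lefty2 once 1 window shared with a pseudogene is included, and reads from these stretches could not be given to a single gene.

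Tdgf1, which encodes the co-receptor Cripto, had 3.25, 3.29 and 3.98 CPM in Bahd1-WT and 3.79, 3.11 and 3.04 CPM in Bahd1-KO. The 6 brains were interleaved, with a log2 fold change of -0.08 ± 0.22 (SE, edgeR adjusted p = 0.813). With the offset the value was on the other side of 0, at 0.17 ± 0.16 (SE, edgeR adjusted p = 0.603). Tdgf1 shares 236 of its 50-base windows (12.5%) with the pseudogene Tdgf1-ps1, which had no more than 3 counts in any library.

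Acvr1b (chromosome 15, 101174067 to 101213684), the type I receptor through which both activin and Nodal signal, was, with Acvr2a, one of the abundant receptors of the set. It had 86.0, 73.7 and 78.4 CPM in Bahd1-WT and 79.6, 102.8 and 104.1 CPM in Bahd1-KO. Bahd1-KO replicates 2 and 3 were above every Bahd1-WT brain, while replicate 1 lay among them. The log2 fold change was 0.27 ± 0.16 (SE, edgeR adjusted p = 0.278). With the trend removed the order was the opposite, with 90.9 to 95.2 CPM in Bahd1-WT and 71.5 to 90.1 CPM in Bahd1-KO, and a log2 fold change of -0.21 ± 0.10 (SE, edgeR adjusted p = 0.274).

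Acvr2a (chromosome 2, 48814109 to 48903269), a type II receptor, was the one member that was lower in Bahd1-KO at an unadjusted p under 0.05. It had 78.7, 93.1 and 85.7 CPM in Bahd1-WT and 78.7, 35.5 and 54.0 CPM in Bahd1-KO. Bahd1-KO replicate 1 was at nearly the same level as the lowest Bahd1-WT brain, just under it, and replicate 2 was the lowest. Levels apart in this direction were found in 19.3% of all genes tested. The log2 fold change was -0.61 ± 0.27 (SE, unadjusted p = 0.0473, edgeR adjusted p = 0.152), and without Bahd1-KO replicate 1 it was -0.91 (edgeR adjusted p = 0.0142), still under a 2-fold change. Acvr2a had the lowest GC content of the members, 39.9%, and in the lowest of the 10 GC groups expressed genes had -0.55 as their median log2 fold change. With the offset its log2 fold change was -0.13 ± 0.12 (SE, edgeR adjusted p = 0.566) and the genotypes overlapped. Of its exon bases, 446 (7.84%) lie opposite exons of Orc4, a subunit of the origin recognition complex, which had a log2 fold change of -0.69 (edgeR adjusted p = 0.0969) and with the offset of -0.07.

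Acvr2b, the other type II receptor, had 2.14, 1.34 and 1.69 CPM in Bahd1-WT and 1.26, 2.86 and 2.75 CPM in Bahd1-KO. Replicate 1 of Bahd1-KO was the lowest brain of the 6, while replicates 2 and 3 were the highest, as they were for Acvr1b. The log2 fold change was 0.41 ± 0.34 (SE, edgeR adjusted p = 0.417) and turned to -0.24 ± 0.24 with the offset (SE, edgeR adjusted p = 0.611).

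Smad2, which carries the signal from the receptors to the nucleus, had 31.0, 35.7 and 40.7 CPM in Bahd1-WT and 36.3, 25.8 and 31.5 CPM in Bahd1-KO. The genotypes overlapped, with Bahd1-KO replicate 2 the lowest. A log2 fold change of -0.20 ± 0.19 (SE, edgeR adjusted p = 0.486) was fitted, and 0.11 ± 0.12 with the offset (SE, edgeR adjusted p = 0.664).

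Foxh1, the DNA-binding partner of SMAD2 that directs Nodal signals to their targets, was barely detected. It had 1 count in each Bahd1-WT library, under the 3 counts taken as the lowest level, and 2, 15 and 1 counts in Bahd1-KO. The Bahd1-KO counts thus came almost entirely from replicate 2, the library with the highest GC content. Bahd1-KO had 18 counts against 3 in Bahd1-WT, and without Bahd1-KO replicate 2 the counts were 3 against 3. Foxh1 passed the filter of 10 counts through Bahd1-KO replicate 2 alone, so its test is not read here. At a GC content of 59.1% the transcript belongs to the highest of the 10 GC groups, where 1.401 was the median log2 fold change of expressed genes.

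**Figure D2:**
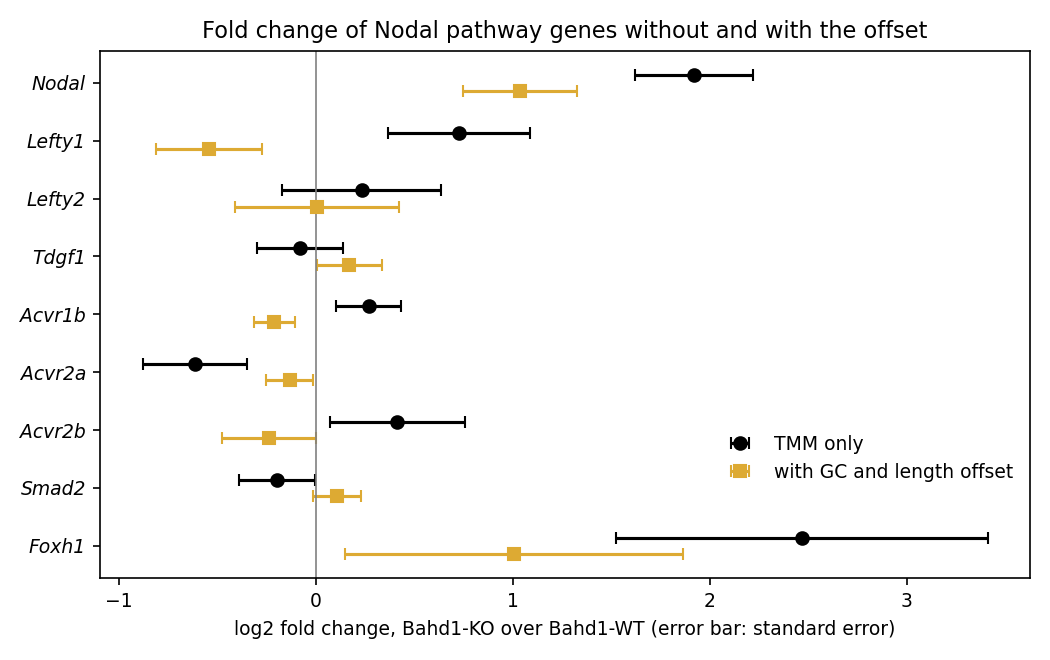
Log2 fold change of Bahd1-KO over Bahd1-WT (x axis) for the 9 members with enough counts. Values are as fitted after TMM normalization (black) and with the GC and length offset (yellow), for 3 brains per genotype. Bars are standard errors, taken as the size of the log2 fold change over the square root of edgeR's F statistic. The bars of Nodal, which was chosen for its rise, and of Foxh1, kept through its Bahd1-KO counts, are not read. Nodal went from 1.92 to 1.04, while Lefty1, Tdgf1, Acvr1b, Acvr2b and Smad2 crossed 0.

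Of the 7 relatives left when Foxh1 is set aside, those with fitted fold changes below 0 were Acvr2a, Smad2 and Tdgf1, which have the lowest GC contents, at 39.9, 44.9 and 45.3%, and 5 of the 7 changed sign with the offset. Nodal and Foxh1 are not counted here, since their direction follows from how they were chosen or kept. A trend with GC content ran through all genes. Over 13283 expressed genes the median log2 fold change went from -0.55 in the GC group around a median of 39.4% to 1.401 in the one around a median of 59.4%. Tdgf1 lay above the band between the 25th and 75th percentiles of expressed genes of its GC group, Lefty1 lay below it, and Acvr1b just under its lower edge. Nodal and Foxh1 also plotted above it, but Nodal was chosen for its rise and Foxh1 was kept through its Bahd1-KO counts, so nothing is read from their place. What made the libraries differ in base composition was not tested.

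**Figure D3:**
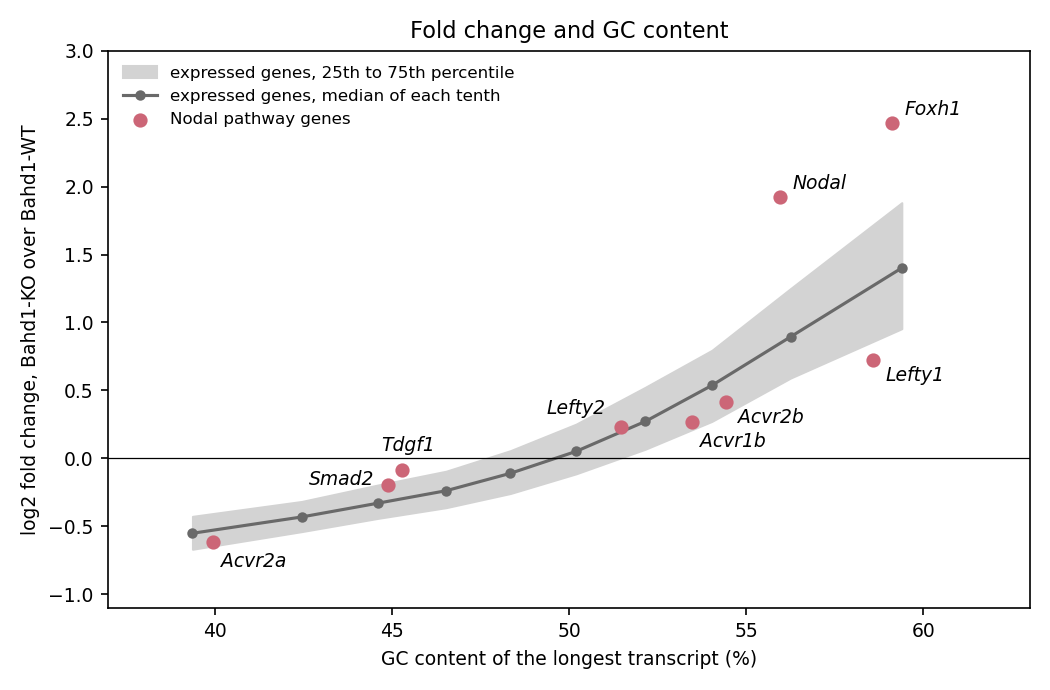
Log2 fold change of Bahd1-KO over Bahd1-WT (y axis) against the GC content of the longest transcript (x axis, percent), with the 9 tested members as red points. The grey line joins the medians of 10 equal groups of 13283 expressed genes, from -0.55 to 1.401, and the band spans their 25th to 75th percentiles.

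Levels were compared between genes per kilobase of exon. In Bahd1-WT the order was Acvr1b with 18.0 ± 1.41 CPM per kb, Acvr2a with 15.1 ± 1.26, Smad2 with 4.08 ± 0.56 and Tdgf1 with 1.34 ± 0.16 (SD, n = 3 each). Acvr1b stood above Acvr2a in every Bahd1-WT brain, by little in replicate 2. Below them came Acvr2b with 0.439 ± 0.102, Lefty1 with 0.367 ± 0.120 and Lefty2 with 0.272 ± 0.138 CPM per kb, whose ranges over the 3 brains overlapped, so that their order was not resolved. Nodal with 0.0839 ± 0.0054 CPM per kb was below all of these in each Bahd1-WT brain, and Foxh1 was at 0.00995 CPM per kb. In Bahd1-KO, Nodal had 0.274 to 0.391 CPM per kb, below Acvr2b (0.322 to 0.727) in each brain although the ranges overlapped. It was above Lefty2 (0.217 to 0.405) in replicate 2 only. Its range stayed under those of Lefty1 (0.458 to 0.878), Tdgf1 (1.16 to 1.45) and the receptors Acvr1b and Acvr2a. The GC and length trend was not removed from these levels. Acvr1b, at 18.0 to 23.6 CPM per kb, then lay above Acvr2a, at 6.24 to 13.8 CPM per kb, in every brain.

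The genes whose pattern over the 6 brains was most like that of Nodal were Gm8860, Gsg1, which encodes a protein of male germ cells, and Gm20511. Likeness was the root mean square difference of log2 CPM (prior count 2) after the mean over Bahd1-WT was subtracted, and it was 0.182, 0.198 and 0.207 for the 3 genes. All had fewer counts than Nodal in every library, and in Bahd1-WT Gm8860 and Gsg1 were under the limit of 3 counts, where the prior count makes up most of the value, so this ranking is a loose one. Gm8860 had 1, 0 and 0 counts in Bahd1-WT and 3, 8 and 5 in Bahd1-KO. Gsg1 had 1, 1 and 0 against 3, 11 and 4, and Gm20511 had 3, 4 and 3 against 8, 28 and 10. Their GC contents, 58.0, 55.5 and 58.3%, were like the 55.9% of Nodal.

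The wider pathway was described by a list of 50 further genes, of which 47 could be tested. In edgeR's test 0 of the 47 were called, 9 were higher and 6 lower in Bahd1-KO at an unadjusted p under 0.05 (19.9% and 12% of all genes), and 25 were above and 22 below 0 with a median log2 fold change of 0.03. With the offset 0 were called (0.0167% of all genes), 5 were higher and 11 lower at an unadjusted p under 0.05 (9.89% and 11.4% of all genes), and 14 were above and 33 below 0 with a median of -0.19, where the median over all genes was -0.06 on both scales. DESeq2 with a normal prior called 3 of the 47 as higher (9.61% of all genes), Drap1, Furin and Inha, and 0 as lower (0.909% of all genes), and gave no adjusted p to 4 of them, which had few counts.

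Among the activin-type and TGF-beta ligands, 10 of 11 could be tested and their median log2 fold change was 0.45 (0.09 with the offset). At an unadjusted p under 0.05 in edgeR's test 4 of the 10 were higher and 0 lower (19.9% and 12% of all genes), and with the offset 1 was higher and 2 lower (9.89% and 11.4%). The most abundant were Gdf11, a growth factor close to myostatin, with a log2 fold change of -0.12 (edgeR adjusted p = 0.602), Tgfb2 with -0.37 (edgeR adjusted p = 0.195) and Tgfb3 with 0.89 (edgeR adjusted p = 0.0641). With the offset Gdf11 had -0.45 (edgeR adjusted p = 0.104) and Tgfb2 -0.20 (edgeR adjusted p = 0.333). Tgfb3 had 10.2 ± 0.743 CPM in Bahd1-WT and 18.9 ± 5.26 CPM in Bahd1-KO (SD, n = 3 each), and its log2 fold change with the offset was 0.45 (edgeR adjusted p = 0.106). Inha, the inhibin alpha subunit and one of the genes that DESeq2 called, had 3.01 ± 0.512 CPM in Bahd1-WT and 7.23 ± 4.08 CPM in Bahd1-KO (SD, n = 3 each), with an edgeR log2 fold change of 1.27 (adjusted p = 0.0748) that was -0.20 with the offset. Inha, Drap1 and Mixl1 were singled out after their values were seen.

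The other receptors and co-receptors had a median of -0.42 (-0.12 with the offset), and 3 of the 6 tested were lower in Bahd1-KO at an unadjusted p under 0.05 (12% of all genes), and 0 with the offset in edgeR's test (11.4% of all genes). These were Acvr1c, the ALK7 receptor that can also bind Nodal, at 39.5 ± 4.73 CPM in Bahd1-WT and 23.7 ± 7.86 CPM in Bahd1-KO (SD, n = 3 each; log2 fold change -0.74, edgeR adjusted p = 0.101), Bmpr2 (log2 fold change -0.57, edgeR adjusted p = 0.150) and Tgfbr1 (log2 fold change -0.56, edgeR adjusted p = 0.150). With the offset their log2 fold changes were -0.23, -0.04 and -0.10, and all 3 have a GC content of 40.1 to 41.0%. Cfc1, the other EGF-CFC co-receptor, had 1, 1 and 0 counts in Bahd1-WT and 1, 3 and 1 in Bahd1-KO and was not tested.

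The extracellular inhibitors had a median of 0.27 (-0.12 with the offset), and 0 of the 6 were at an unadjusted p under 0.05 in edgeR's test, against 19.9% of all genes higher and 12% lower. With the offset 2 were higher and 2 lower by that rule (9.89% and 11.4% of all genes). Tmeff1, a membrane inhibitor of Nodal signalling that was abundant here, had 143 ± 16.8 CPM in Bahd1-WT and 109 ± 26.8 CPM in Bahd1-KO (SD, n = 3 each; log2 fold change -0.38, edgeR adjusted p = 0.216), and its log2 fold change with the offset was -0.27 (edgeR adjusted p = 0.253). Dand5, a secreted Nodal antagonist, had a log2 fold change of 0.33 (edgeR adjusted p = 0.386), and of -0.52 with the offset (edgeR adjusted p = 0.0961). Bambi, a pseudoreceptor, had a log2 fold change of 0.33 (edgeR adjusted p = 0.389), and of 0.72 with the offset (edgeR adjusted p = 0.166). Cer1 (3, 9 and 3 counts in Bahd1-WT, 2, 6 and 5 in Bahd1-KO) had a log2 fold change of -0.08 (edgeR adjusted p = 0.951), and of 0.02 with the offset (edgeR adjusted p = 0.991). Of the proprotein convertases that cleave the Nodal precursor, Furin had a log2 fold change of 1.53 (edgeR adjusted p = 0.0634), at 7.92 ± 1.55 CPM in Bahd1-WT and 22.8 ± 12.6 CPM in Bahd1-KO (SD, n = 3 each), and 0.61 with the offset (edgeR adjusted p = 0.0950). Pcsk6 had 0.58 (edgeR adjusted p = 0.0956) and turned to -0.25 with the offset, and Pcsk5 had -0.03 (edgeR adjusted p = 0.925), and -0.41 with the offset (edgeR adjusted p = 0.363). Of these 3 convertases 2 were higher at an unadjusted p under 0.05 (19.9% of all genes), and 1 with the offset (9.89%).

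The Smads and nuclear partners had a median of -0.05 (-0.19 with the offset), with 3 of 14 higher and 2 lower at an unadjusted p under 0.05 in edgeR's test (19.9% and 12% of all genes), and 1 higher and 4 lower with the offset (9.89% and 11.4%). Smad3, which acts beside Smad2, had a log2 fold change of 0.32 (edgeR adjusted p = 0.186) and Smad4, the common partner, of -0.06 (edgeR adjusted p = 0.783). With the offset these were -0.09 and -0.08. The most abundant genes of the list were the phosphatase Ppm1a (log2 fold change -0.27, edgeR adjusted p = 0.267), the Smad anchor Zfyve9 (-0.40, edgeR adjusted p = 0.142) and the corepressor Ski (0.09, edgeR adjusted p = 0.715). With the offset Ppm1a turned to 0.13 and Ski to -0.70, and Zfyve9 had -0.20, with edgeR adjusted p-values of 0.456, 0.0814 and 0.283. Drap1, a transcriptional corepressor that limits Nodal signalling in the embryo, had 24.7 ± 6.21 CPM in Bahd1-WT and 92.3 ± 50.7 CPM in Bahd1-KO (SD, n = 3 each), a log2 fold change of 1.90 (edgeR adjusted p = 0.0634) that was 0.40 with the offset (edgeR adjusted p = 0.0858).

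Of 9 known targets of Nodal signalling, 8 could be tested and their median was 0.10 (-0.25 with the offset). As fitted 5 were above 0 and 3 below, and with the offset 0 were above and 8 below. At an unadjusted p under 0.05 in edgeR's test 0 were higher and 1 lower (19.9% and 12% of all genes). With the offset 0 were higher and 3 lower by that rule (9.89% and 11.4%), with Mixl1 among the lower ones on both scales. Pmepa1, a feedback inhibitor, had a log2 fold change of 0.37, Eomes, a T-box factor, of 0.19 and Lhx1, a homeobox factor, of -0.05, with edgeR adjusted p-values of 0.218, 0.830 and 0.887. With the offset Pmepa1 and Eomes turned to -0.26 and -0.23 and Lhx1 had -0.53, with edgeR adjusted p-values of 0.420, 0.842 and 0.112. Mixl1, a homeobox gene of mesendoderm, had 2, 3 and 5 counts in Bahd1-WT and 0 in each Bahd1-KO library, too close to the limit of 3 counts for a fold change to be read, and without it the median of the other 7 targets was 0.18 as fitted and -0.23 with the offset.

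**Figure D4:**
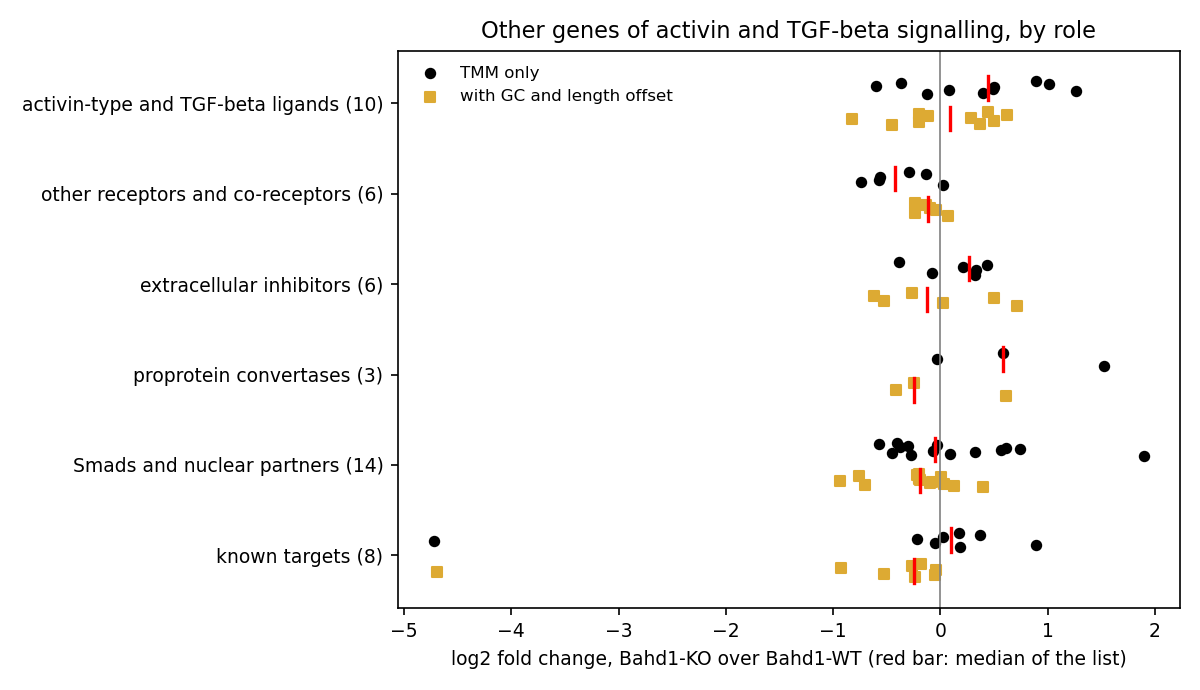
Fitted log2 fold change of Bahd1-KO over Bahd1-WT (x axis) for the 47 tested genes of the wider pathway list, by role (y axis, number tested in brackets), after TMM normalization (black) and with the GC and length offset (yellow), with the median of each list as a red bar. The medians run from -0.42 for receptors to 0.58 for convertases as fitted, and from -0.25 to 0.09 with the offset; the far left point is Mixl1, whose fitted value rests on 0 counts in Bahd1-KO.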

How the data were processed

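RNA-seq counts of 6 adult brain hemispheres, 3 Bahd1-WT and 3 Bahd1-KO, were used, grouped by the genotype in their labels. The authors deposited raw counts per gene, without normalization or filter: reads were trimmed with cutadapt 1.11, aligned to GRCm38 and assigned to exons with featureCounts 1.4.6-p3. The submitters' processing notes name STAR 2.5.0a as the aligner, and the supplementary methods also name Tophat2. The table holds 0 columns of other samples. Replicates are separate mice.

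Genes were kept where the 6 libraries summed to 10 counts or more. The main test was edgeR 4.0.16 in R 4.3.3, with TMM factors, a quasi-likelihood fit on genotype and Benjamini-Hochberg adjustment over all 23975 genes tested. A call needed a 2-fold change or more with an adjusted p under 0.05. CPM values use TMM library sizes. Standard errors (SE) of fold changes are the size of the log2 fold change over the square root of edgeR's F statistic. The GC and length offset models log2 CPM by natural splines of GC content (5 degrees of freedom) and log length (3), fitted in each library to 13283 genes with a mean log2 CPM above 1. Gene positions, lengths and GC came from GENCODE M21 (GRCm38), and promoter sequence from RefSeq (GRCm38.p6), which matched 6 of the 10 genes. The limit of 3 counts takes in counting error alone, while PCR copies make reads dependent. Scripts were tested on simulated counts.

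Named genes were the 10 members, the 3 most abundant genes of each pathway list, any gene called, and Acvr1c, Cfc1, Cer1, Smad3 and Smad4. Bahd1, genes overlapping a member, the nearest protein-coding neighbours of Nodal, and the 3 genes most like Nodal were added. The results of 1 gene that this rule names are left out, and the others are reported. The members and lists were chosen with earlier results of these data known. Alternatives were other scalings (DESeq2 size factors, upper-quartile factors, total counts), DESeq2 1.42.0 with and without its normal prior, other filters, leaving out each library, a replicate block, the offset, and the block with the offset. DESeq2 with the offset and leaving out libraries with the offset were added after the data were seen. Other samples and assays of the study were not analysed here.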

Additional observations from a re-analysis of the deposited data

How the results depend on the processing

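Of the relatives of Nodal that had an adjusted p, 8 in the main test, 0 were called there and in the 16 planned and 7 added alternatives, while the number of calls over all genes moved widely. It was 2 in the main test, 2007 with total counts, 2522 with DESeq2 and its normal prior, 2761 without the prior, 2770 with no filter beyond 1 count, 7 with the replicate block, 4 with the offset, 9 with the block and offset, and 169 with DESeq2, its prior and the offset. Leaving out 1 library gave 0 to 3988 calls (1 to 941 with the offset), the highest without Bahd1-KO replicate 1 in both cases. Of the wider pathway list, 0 genes were called in the main test, 2 with total counts (Drap1 and Furin), 3 with DESeq2 with or without its prior and 3 with no filter (Drap1, Furin and Inha), and 0 to 6 when 1 library was left out (0 to 3 with the offset), where Bahd1-KO replicate 1 again gave the highest count.

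Nodal, which was chosen for being higher in Bahd1-KO, was above 0 in all of these alternatives. Its log2 fold change was 1.04 with the offset, 1.04 with the block and offset, 0.67 with DESeq2, its prior and the offset, 1.73 to 2.05 with 1 library left out, and 0.96 to 1.16 with the offset as well. With the offset, with the block and offset, and with DESeq2, its prior and the offset, the direction turned for Lefty1 (-0.54, -0.50 and -0.42), Tdgf1 (0.17, 0.17 and 0.16), Acvr1b (-0.21, -0.22 and -0.20), Acvr2b (-0.24, -0.26 and -0.20) and Smad2 (0.11, 0.11 and 0.10). With 1 library left out and the offset, these ran from -0.70 to -0.27 for Lefty1, 0.10 to 0.26 for Tdgf1, -0.30 to -0.13 for Acvr1b, -0.45 to -0.060 for Acvr2b and 0.015 to 0.22 for Smad2. Without the offset, leaving out Bahd1-WT replicate 1 turned Lefty2 to -0.032 (range -0.032 to 0.71, and -0.27 to 0.53 with the offset), and leaving out Bahd1-WT replicate 3 turned Tdgf1 to 0.017 (range -0.16 to 0.017). Without the offset and with 1 library left out, Lefty1 ran from 0.33 to 0.99, Acvr1b from 0.21 to 0.41, Acvr2a from -0.91 to -0.38, Acvr2b from 0.23 to 0.73 and Smad2 from -0.30 to -0.08, with no turn of direction. The cause was not tested.

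Upper-quartile factors shifted the median of all genes by -0.14 on the log2 scale. Same-numbered libraries of the 2 genotypes correlated at -0.64, -0.66 and -0.14 in their deviations from the group means. Such deviations cancel within each genotype, so these values cannot settle whether the numbers pair the mice. The replicate block called 0 of the relatives. Foxh1 had no adjusted p in any of the DESeq2 fits, and too few counts to be tested with edgeR's filterByExpr or without Bahd1-KO replicate 2. Depth limits Foxh1, Cfc1, Cer1 and Mixl1, which had 15 counts or fewer in each library.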
